A study of Mus musculus with 192 samples.

Results

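Cytosolic ribosomal protein genes encode the proteins of the small and large subunits of the ribosome that translates nuclear-encoded mRNAs. Most exist as a single working gene with many intron-less copies scattered in the genome, and most of their mRNAs begin with a cytosine followed by a run of pyrimidines, the terminal oligopyrimidine motif through which mTORC1 and Larp1 adjust their translation together. A few have a second, expressed paralogue that is known to be confined to certain tissues. The genes described here were those whose symbol in the deposited table is Rpl or Rps followed by a number with at most a short suffix, Rplp0 to Rplp2, or Rpsa. This rule took 89 of 54752 genes, of which 53 carry a large subunit name and 36 a small subunit name. The annotation calls 83 of them protein coding and 6 processed pseudogenes (Rps12l1, Rps3a2, Rps3a3, Rpl6l, Rpl32l and Rps4l). Of the 89, 85 passed the filter on low counts in all 9 tissues, Rpl3l passed in 3, Rpl39l in 2, and Rpl10l and Rpl32l in none, which gave 770 pairs of member and tissue.

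RNA was measured in male C57BL/6J mice (C57BL/6 in the labels), labelled as 12 weeks old, that lacked the transcription factor Nrf2 (Nrf2-KO, KO, the Nfe2l2 tm1Ymk allele) or were wild type (WT). The mice either lived for about a month on the International Space Station (flight, FL) or were kept in the same type of cage unit on the ground (ground control, GC). The 4 groups were therefore GC_WT, FL_WT, GC_KO and FL_KO, and they were compared in 9 tissues. These were bone of the skull base (temporal bone, TpB) and jaw (mandible, MdB), the lymphoid organs spleen (Spl) and thymus (Thy), epididymal white fat (eWAT) and interscapular brown fat (iBAT), and cerebrum (Cbr), kidney (Kid) and liver (Liv). All mice of all groups were housed 1 to a cage, and the knockout is in every cell of the animal. The ground control was run at another place and a later time than the flight, so that spaceflight, launch, return and the run cannot be told apart. Groups held 6 mice, except 5 in FL_KO, where mouse FL04 was left out because it had intestinal hemorrhage, and 3 in MdB and Kid, where FL_KO of MdB had 2.

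Summed expected counts ran from 8007523 to 10564704 per library in Thy and from 13110740 to 16308175 in the other tissues. The Nfe2l2 transcript was at 28.2 to 47.9% of its WT mean in the KO mice of 8 tissues and at 82.0% in Spl, with no overlap of the genotypes in any tissue. Fixed markers of liver, kidney, brain, white fat, brown fat, T cells, B cells, bone and tooth each summed to more TPM in every library of their own tissue than in any library of another. Thymus libraries were made from total RNA after removal of ribosomal RNA and those of the other tissues from poly(A) RNA, so the thymus and the library type cannot be told apart wherever tissues are compared.

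The start of the transcript is where the shared pyrimidine run lies, and the following sequences are shown because the genes recur in the results below. Each is 15 bases before and 15 bases from the RefSeq start site of GRCm38.p6, 5′ to 3′ on the strand of the gene, with the longest run of C and T in capitals.
Rps18 (chr17:33955651-33955680, minus strand): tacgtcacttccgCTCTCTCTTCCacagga
Rps10 (chr17:27635230-27635259, minus strand): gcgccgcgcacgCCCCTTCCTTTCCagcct
Rps6 (chr4:86857353-86857382, minus strand): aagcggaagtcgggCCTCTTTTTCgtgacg
Rpl28 (chr7:4792950-4792979, plus strand): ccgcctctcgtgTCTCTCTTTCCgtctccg
Rpl13a (chr7:45128731-45128760, minus strand): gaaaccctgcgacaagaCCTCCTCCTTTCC
Rpl22l1 (chr3:28805493-28805522, plus strand): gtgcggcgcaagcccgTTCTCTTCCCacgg
Rpl3l (chr17:24727811-24727840, plus strand): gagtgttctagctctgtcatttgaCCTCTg
A run of at least 8 C or T within 20 bases around the start was found at 31 of the 64 members that had a RefSeq start in the table (48.4%), against 4965 of 27025 starts of all genes (18.4%). The stricter form, a C at the annotated first base followed by at least 4 C or T, was found at 14 of 64 members (21.9%) and 813 of 27025 starts (3.01%). The paralogue Rpl3l, which replaces Rpl3 in striated muscle, lacked a run of 8 at the start shown, whereas Rpl22l1, the paralogue of Rpl22, had one.

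Reads of these genes are hard to place, because the copies elsewhere in the genome are close to identical. Of the 89 members, 85 shared at least 1 stretch of 76 bases, the read length, with the transcripts of another gene, and the median member shared 29.2% of its stretches. Rpl3l, Rpl39l and Rps3 were among those that shared none, and 22 members shared at least 50%. In all, 300 other rows of the table were near copies of 69 members, and over all libraries these rows held 40.3% as many expected counts as the members themselves. For 22 members the near copies held more than 50% of the counts of the family, and for 6 more than 90%. These were Rpl12 (99.1%), Rpl5 (96.6%), Rpl10 (93.7%), Rps6 (92.9%), Rps23 (92.3%) and Rpl27 (91.9%). Rps12l1, annotated as a pseudogene of the small subunit gene Rps12, had all its stretches in common with other genes and held 97.2% of the counts of the pair. The level of such a gene in the table is thus a level of its row, not of the protein-coding locus.

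**Figure D1:**
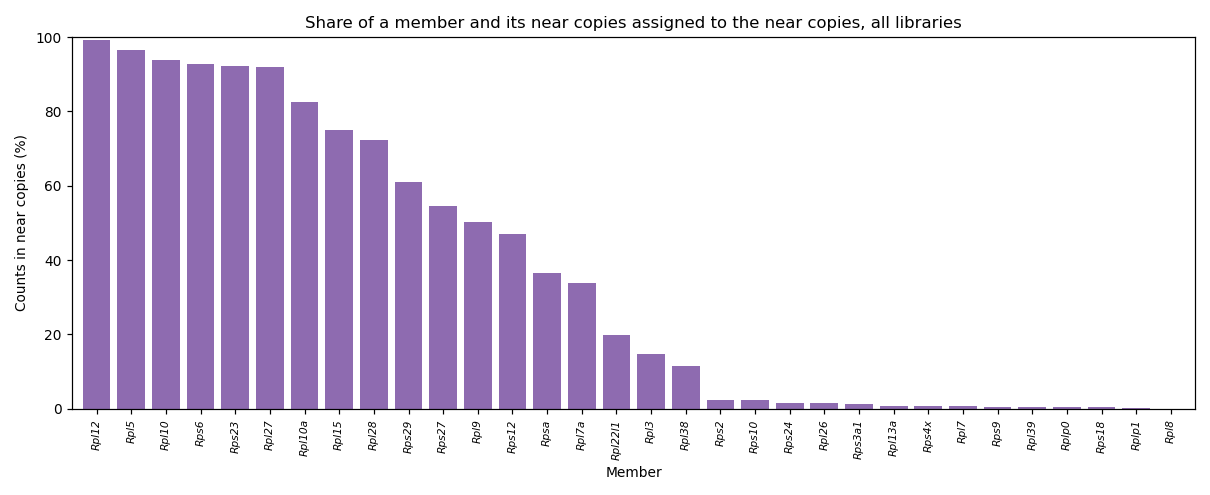
Percent of the expected counts of each family (a member and its near copies, summed over all libraries) that were assigned to the near copies, on the y axis, for the 32 members with near copies that are named in the text. Rpl12, Rpl5, Rpl10, Rps6, Rps23 and Rpl27 lie above 90%.

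By summed TPM and by share of counts, members as a group were most abundant in Spl and least abundant in iBAT. Summed over the members, the median level in GC_WT was 84620 TPM (transcript abundance per length, scaled to 1 total in every library) in Spl, 56980 in MdB, 33580 in Thy, 33560 in TpB and 29140 in eWAT. It was 25420 TPM in Cbr, 22300 in Kid, 13620 in Liv and 10340 in iBAT. Spl was thus 8.19 times iBAT in TPM, and 5.87 times by the members' share of all expected counts. With members and mitochondrially encoded genes taken out of the total TPM, the medians were 96940 in Spl, 16600 in iBAT and 15610 in Liv. On that scale Liv was lowest, and the ranges of Liv (14030 to 18040) and iBAT (16110 to 18020) overlapped. By gene, 71 members had their highest mean TPM in Spl and 73 their lowest in iBAT. In whole tissue, fewer cells of a type and less RNA per cell cannot be told apart.

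**Figure D2:**
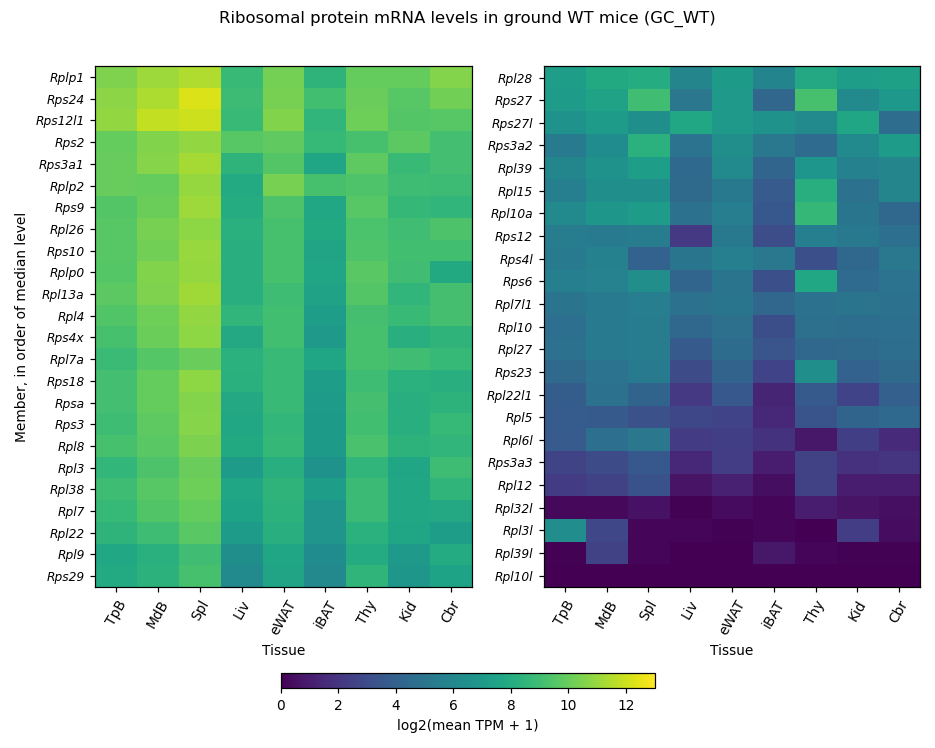
Level of the 47 ribosomal protein genes named in the text (rows) in 9 tissues (columns) as log2(mean TPM + 1) in GC_WT mice. Most rows are highest in Spl and lowest in iBAT, whereas the rows of Rpl3l, Rpl39l, Rpl10l and Rpl32l are near 0 in most tissues.

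Single members spanned a wide range within a tissue. Among the 85 members tested in all 9 tissues, by the median over tissues of the mean TPM, the highest were Rplp1 (1240 TPM), an acidic protein of the ribosomal stalk, Rps24 (1195 TPM), a small subunit protein mutated in Diamond-Blackfan anemia, and Rps12l1 (1128 TPM). The lowest of the 85 was Rpl12, a protein at the base of the stalk, at 1.28 TPM by its own row, with 99.1% of its family in near copies, and the pseudogenes Rps3a3 (4.13 TPM) and Rpl6l (4.33 TPM) were next. On the log2(TPM + 1) scale, those of the 85 that differed most between tissues were Rpl10a (396.4 TPM in Thy and 10.8 in iBAT) and Rps27 (594.6 TPM in Thy and 18.3 in iBAT), followed by Rps6 (211.7 TPM in Thy and 7.97 in iBAT) and Rpl15 (295.2 TPM in Thy and 12.3 in iBAT). Those highs in Thy coincide with the other library type, and near copies held their lowest share of counts there, 28.8% of the members' counts in the median thymus library against 45.0% in the median Spl library.

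Members with an l after the number did not all follow the common pattern. Rpl7l1 and Rps12l1 were highest in Spl and lowest in iBAT, and the others were not. Rpl3l, the striated muscle form of Rpl3, was at a median of 80.2 TPM (47.7 to 120.5) in TpB of GC_WT, 5.13 TPM (4.37 to 7.99) in MdB and 4.08 TPM (3.01 to 5.14) in Kid, and at 0.35 TPM or less in the median of the other tissues. MdB and Kid overlapped, and TpB lay above both. Within TpB its level ranged over all groups from 0.14 TPM, in GC_KO mouse 01, where the skeletal muscle actin Acta1 was at 2.66 TPM, to 135.0 TPM, in GC_KO mouse 04, where Acta1 was at 7626 TPM. In iBAT, Rpl3l was at 29.98 TPM in FL_WT mouse 06, 12.6 in FL_WT mouse 08 and 37.3 in FL_KO mouse 11, and at 0.58 TPM or less in every other mouse. The same 3 libraries held Acta1 at 1838, 913.9 and 2622 TPM, against 20.9 TPM or less in the others.

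Rpl39l, the paralogue of Rpl39 best known from male germ cells, was at a median of 4.14 TPM (3.68 to 7.05) in MdB and 0.60 TPM (0.32 to 2.02) in iBAT of GC_WT, with no overlap of the 2 tissues. Rpl10l, the germ cell form of the X-linked Rpl10, was listed at 0 in nearly all libraries and reached 0.12 TPM at most. Rps27l, a paralogue of Rps27, was highest in Liv, at a median of 206.8 TPM (185.4 to 239.5), and in Kid, at 203.2 TPM (175.4 to 211.2), and lowest in Cbr, at 23.9 TPM. Liv and Kid did not differ beyond their spread. Between them and Cbr lay MdB (141.4 TPM), eWAT (131.8 TPM), TpB (107.4 TPM), iBAT (96.8 TPM), Spl (90.1 TPM) and Thy (70.7 TPM). Rpl22l1 was highest in MdB, at 30.3 TPM, and lowest in Liv, at 2.98 TPM, and iBAT, at 1.53 TPM. Rpl7l1, which is named for Rpl7, ranged from 18.1 TPM in iBAT to 46.1 TPM in Spl. Among the pseudogenes of the same naming, Rps12l1 ran from 368.8 TPM in iBAT to 4068 TPM in Spl, Rps4l from 7.63 TPM in Thy to 55.5 TPM in MdB, Rpl6l from 0.45 TPM in Thy to 35.9 TPM in Spl, and Rpl32l was at 0.64 TPM or less.

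Flight was compared with ground housing in each genotype and tissue by edgeR's quasi-likelihood test, with Benjamini-Hochberg adjustment over all genes tested in the tissue. In WT mice, members changed in eWAT, iBAT and Thy. In eWAT 16 of 85 tested members were higher in flight and none lower, where 6.65% of all genes were called higher and 6.78% lower. In iBAT 15 of 86 were higher and 2 lower, against 8.83% and 10.3% of all genes. In Thy 22 of 85 were lower and none higher on the TMM scale, a sign that turned for their median on the TPM scale (values given later), against 11% lower and 11.8% higher of all genes. Summed over tissues these were 31 pairs higher and 24 lower of 770, beside 3.23% and 3.32% of all pairs of gene and tissue.

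In KO mice, which share no sample with the WT comparison, iBAT carried most of the change. There 54 of 86 members were higher and 2 lower, against 17.0% and 16.6% of all genes. In Thy 36 of 85 were lower and 1 higher on the TMM scale, with the same turn of the median on the TPM scale, against 18.9% and 19.3% of all genes. In eWAT 9 of 85 were higher and none lower, against 3.73% and 3.98%, and in Liv 3 were higher and none lower, against 1.31% and 2.02%. Over tissues these were 67 pairs higher and 38 lower, beside 4.43% and 4.48% of all pairs.

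**Figure D3:**
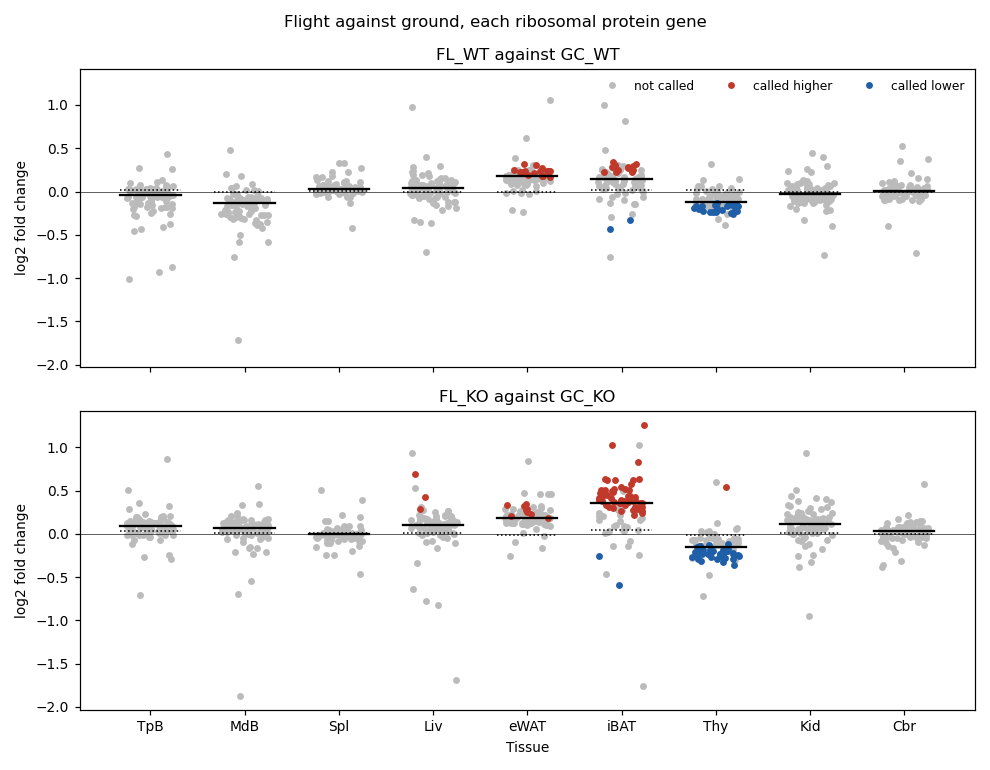
Log2 fold change of flight against ground for each tested member (points) in each tissue, in WT (one panel) and KO mice (the other), on TMM-scaled counts, with called members in red (higher) or blue (lower). Solid lines mark the median of the members and dotted lines that of all tested genes, and the members' median lies above that of all genes in eWAT and iBAT and below it in Thy.

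The same genes recurred in part. All 15 members called higher in WT iBAT were among the 54 called in KO iBAT, and Rps4l and Rps27l were called lower in both on the TMM scale of the counts, although the sign of Rps27l in KO turned on the TPM scale. In Thy 19 members were called lower in both genotypes, of 22 in WT and 36 in KO, and in eWAT 4 were called higher in both, of 16 and 9. No member differed in its flight response between the genotypes in any tissue by the interaction test of edgeR, where at an unadjusted p under 0.05 34 of 770 pairs were above 0 and 4 below (2.39% and 2.57% of all pairs of gene and tissue). Of these, 19 and 1 were among the 86 members in iBAT (3.34% and 4.96% of all genes there). DESeq2 called 1 such pair, Rpl9 in iBAT, and limma none. The larger number of calls in KO iBAT is therefore not shown to be a difference between genotypes.

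No member was called by edgeR in the remaining tissues, where few other genes were. In WT mice 1.15% of all genes were called higher and 1.11% lower in Spl, 1.53% and 1.91% in Liv, 0.0992% and 0.0198% in Kid, 0.0244% lower in Cbr and none in TpB or MdB. In KO mice these shares were 0.155% and 0.513% in Spl, 0.0662% and 0.0926% in Kid and 0.0061% lower in Cbr. At an unadjusted p under 0.05, WT mice had 11 of 87 members lower in MdB (4.28% of all genes), 4 of 85 higher in Spl (8.09%), 4 higher and 1 lower of 85 in Liv (7.99% and 8.75%), 1 higher and 3 lower of 86 in Kid (3.14% and 3.49%), and none in TpB or Cbr. KO mice had 1 of 87 lower in MdB (1.79%), 1 higher and 2 lower of 85 in Spl (6.07% and 6.91%), 15 higher and 1 lower of 86 in Kid (6.29% and 6.56%), and none in TpB or Cbr. In those tissues DESeq2 called 1 member lower in MdB and 1 lower in Liv of WT mice and limma 3 higher in Liv of WT mice, and neither called any in TpB, MdB, Spl, Kid or Cbr of KO mice.

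These changes were small. The median log2 fold change of the members in iBAT was 0.15 in WT and 0.36 in KO, where all genes had 0.02 and 0.04. In eWAT it was 0.18 in WT and 0.19 in KO, beside medians of all genes of -0.004 and -0.01. In Thy it was -0.12 in WT and -0.15 in KO, beside 0.02 and -0.01. By subunit, in KO iBAT the median was 0.33 for the large and 0.36 for the small subunit, with 33 of 50 and 21 of 36 members called higher. In KO Thy it was -0.17 and -0.15. By shared sequence, in KO iBAT 11 of the 15 that shared under 10% of their stretches were called higher, and 13 of the 22 that shared at least 50%.

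The scale of the values decided part of this picture. On log2(TPM + 1) with limma, the median of all genes itself moved upwards with flight, by 0.31 in WT iBAT, 0.43 in KO iBAT, 0.18 and 0.16 in Thy and 0.15 in KO Liv. Members then had medians of 0.46 and 0.78 in iBAT, with 67 and 75 of 81 called higher and none lower, where 55.8% and 65.3% of all genes were called higher by the same fit. In Thy the members' medians turned positive, 0.10 in WT and 0.11 in KO, with 10 and 8 of 84 called higher and none lower (38.8% and 33.6% of all genes higher), and yet remained below those of all genes. In eWAT 54 and 14 of 83 members were called higher (16.6% and 5.22% of all genes), and in KO Liv 33 of 82 (15.6%), with medians of 0.28, 0.20 and 0.25. Of all genes called, those higher in flight made up 46.1% (WT) and 50.6% (KO) in iBAT by edgeR but 94.0% and 92.4% on the TPM scale, and in Thy 51.7% and 50.5% but 94.4% and 92.0%. In eWAT these shares were 49.5% and 48.4% against 79.9% and 65.1%, and in Liv 44.5% and 39.3% against 83.8% and 89.6%. The direction in Thy is thus one relative to other genes, whereas in iBAT and eWAT the members' medians were above 0 and above that of all genes on both scales.

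In single mice, members took a larger share of the library in flight fat. In iBAT of GC_WT they made up 0.492 to 0.582% of expected counts (median 0.519%), and in FL_WT 0.579 to 0.841% (median 0.683%). In GC_KO the share was 0.433 to 0.478% (median 0.452%), and in FL_KO it was 0.659, 0.805, 0.751, 0.732 and 0.734%. The ranges overlapped slightly in WT and not in KO, and the means differed by 31.5% and 62.1%. In eWAT the share was 0.919 to 1.13% in GC_WT (median 1.03%) and 1.17 to 1.32% in FL_WT (median 1.22%), which did not overlap. In KO eWAT it was 0.918 to 1.17% on the ground (median 1.09%) and 1.24, 1.31, 1.295, 1.18 and 1.17% in flight, with 1 flight value at the edge of the ground range. In Thy the share differed by 1.5% (WT) and 2.3% (KO) of the ground mean, with overlapping groups.

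**Figure D4:**
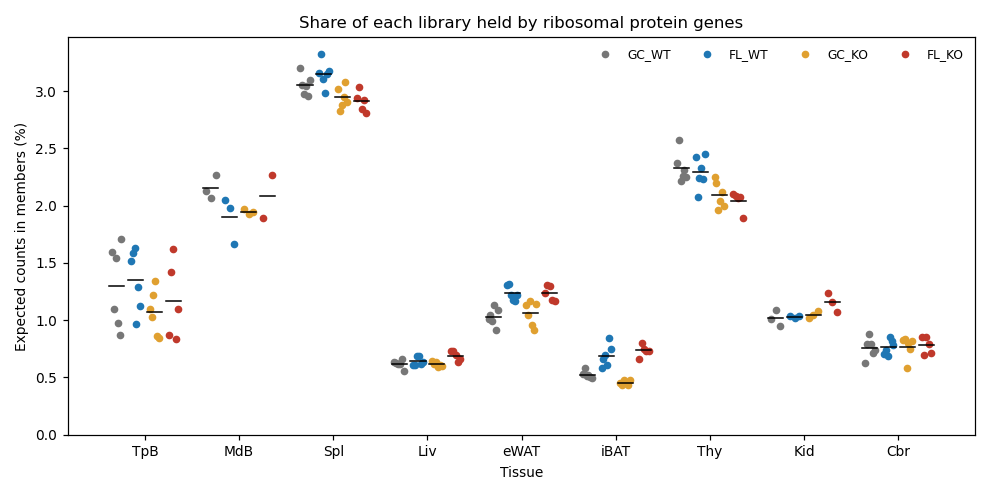
Share of all expected counts that was assigned to the 89 ribosomal protein genes (percent, y axis) in each mouse (points) of each group and tissue, with group means as bars. In iBAT the FL_KO points lie between 0.659 and 0.805%, all above GC_KO, and Spl is the highest tissue.

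Members of both subunits were called in iBAT. On the large subunit, Rpl8, a protein next to the peptidyl transferase center, was at 81.5 to 99.5 CPM (counts per library size after TMM scaling, not per length; median 89.2) in GC_WT and 101.0 to 135.6 (median 109.1) in FL_WT. In GC_KO it was at 82.1 to 93.8 CPM (median 86.4) and in FL_KO at 115.7, 144.1, 127.2, 116.3 and 116.5 CPM. Neither genotype had any overlap, and the log2 changes were 0.32 (SE 0.072, adjusted p = 0.00313) in WT and 0.51 (SE 0.075, adjusted p = 2.35e-05) in KO. Rpl4, which lines the peptide exit tunnel, was at 163.6 to 179.7 CPM (median 171.1) in GC_KO and at 241.1, 274.8, 241.2, 238.2 and 216.6 CPM in FL_KO, without overlap (log2 0.50, SE 0.069, adjusted p = 1.08e-05). In WT, Rpl4 was at 175.0 to 207.7 CPM (median 190.3) on the ground and 200.6 to 269.9 (median 229.6) in flight, with slight overlap and a change of 0.27 (SE 0.066, adjusted p = 0.00633) that was not called without 3 libraries described below (0.19). Rplp0, the scaffold of the stalk, was at 184.3 to 201.4 CPM (median 195.1) in GC_KO and at 267.0, 316.6, 267.6, 269.4 and 260.2 CPM in FL_KO. All flight values of Rplp0 were above all ground values (0.51, SE 0.069, adjusted p = 8.88e-06).

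Small subunit members in iBAT gave changes of the same order. Rps3a1 was at 124.3 to 145.3 CPM (median 138.4) in GC_KO and at 205.6, 252.6, 203.7, 204.2 and 190.8 CPM in FL_KO (log2 0.64, SE 0.092, adjusted p = 1.88e-05). In WT it was at 133.8 to 182.4 CPM (median 150.8) and 155.4 to 229.7 CPM (median 184.9), overlapping groups, with a change of 0.30 (adjusted p = 0.0204). Rps18, in the head of the subunit and with the pyrimidine run shown above, rose by 0.63 (SE 0.092, adjusted p = 2.25e-05) in KO, from 54.1 to 59.5 CPM (median 56.3) in GC_KO to 81.8, 105.3, 92.0, 79.7 and 81.4 CPM in FL_KO. In WT it rose by 0.34 (SE 0.088, adjusted p = 0.00985), from 53.1 to 71.8 CPM (median 62.2) to 66.3 to 96.6 CPM (median 77.3). The KO groups of Rps18 did not overlap and the WT groups did.

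The 2 members called lower in iBAT were relatives of core members. Rps4l, annotated as a processed pseudogene of Rps4x, was at 20.3 to 24.9 CPM (median 22.5) in GC_WT and 13.8 to 21.2 CPM (median 16.4) in FL_WT, with a difference of -0.43 (SE 0.110, adjusted p = 0.00801). In GC_KO it was at 18.5 to 24.4 CPM (median 22.9) and in FL_KO at 15.04, 13.2, 15.3, 12.0 and 18.7 CPM (-0.59, SE 0.117, adjusted p = 0.000527). Both pairs of groups overlapped by little, and on the TPM scale the changes of -0.12 and -0.17 were not called. Rps27l was at 28.8 to 42.1 CPM (median 36.0) in GC_WT and 25.1 to 33.4 CPM (median 28.2) in FL_WT (-0.33, SE 0.092, adjusted p = 0.0138), and in KO its change was -0.26 (SE 0.097, adjusted p = 0.0411), a call lost without FL_KO mouse 01, 02, 11 or 12. On the TPM scale Rps27l changed by -0.01 in WT and, with the sign reversed, by 0.17 in KO, so that no direction is given for it.

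Markers of other cell types were also called between flight and ground in iBAT, those of skeletal muscle with high levels in only 3 flight libraries. Of 10 skeletal muscle markers, 8 were called higher in both genotypes. Their summed levels were 2.76 to 7855 TPM in FL_WT (median 20.69) and 2.56 to 9709 in FL_KO (median 4.12). On the ground they were 84.7 TPM or less, with medians of 7.165 in GC_WT and 8.01 in GC_KO. Acta1, from the same list, was at 913.9 TPM or more in FL_WT mice 06 and 08 and FL_KO mouse 11. It was at 20.9 TPM or less in every other library. All 5 erythroid markers were lower in both genotypes, as were 1 (WT) and 2 (KO) of 3 brown fat markers, and 5 of 6 macrophage markers were higher in KO, where they summed to 43.7 to 90.4 TPM in FL_KO and 18.8 to 36.1 TPM in GC_KO. Without the 3 libraries that hold muscle transcripts (FL_WT mice 06 and 08, FL_KO mouse 11), 2 members were called higher in WT, Rpl8 and Rps2, and 2 lower, with a member median of 0.05. In KO 58 were then called higher and 1 lower, of which 52 higher calls were shared with the full set, at a median of 0.36. The part of the other cell types in these changes was not tested.

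In eWAT, Rps10, which is ubiquitinated on stalled ribosomes, was at 141.4 to 153.9 CPM (median 151.5) in GC_WT and 166.1 to 193.3 CPM (median 173.8) in FL_WT, without overlap (log2 0.23, SE 0.060, adjusted p = 0.013). Rpl13a was at 194.2 to 238.9 CPM (median 205.9) and 227.3 to 269.4 CPM (median 253.5), with overlap (0.25, SE 0.071, adjusted p = 0.019). Rpl4 was at 423.2 to 477.0 CPM (median 463.9) and 494.2 to 536.2 CPM (median 526.5) in GC_WT and FL_WT, again without overlap (0.18, SE 0.054, adjusted p = 0.0295). In KO, Rpl4 was at 411.4 to 501.5 CPM (median 452.9) on the ground and at 539.5, 545.5, 516.4, 478.2 and 482.4 CPM in flight, groups that overlapped (0.19, SE 0.057, adjusted p = 0.0468). Rpl7a was at 189.6 to 243.5 CPM (median 198.8) in GC_KO and at 246.1, 265.7, 246.2, 265.0 and 235.0 CPM in FL_KO (0.29, SE 0.066, adjusted p = 0.0102), with overlap. Rpl38, known for its part in the translation of Hox mRNAs, was at 42.0 to 61.7 CPM (median 55.0) in GC_KO and at 66.3, 79.0, 68.2, 61.1 and 59.2 CPM in FL_KO, groups that overlapped (0.33, SE 0.087, adjusted p = 0.0225), and was not called without FL_KO mouse 02 (0.27). With the counts of their near copies added, neither was called (Rpl7a 0.16, adjusted p = 0.0981; Rpl38 0.27, adjusted p = 0.064). The count of KO calls fell from 9 to 3 without FL_KO mouse 01, to 1 without mouse 02 and to 2 without mouse 09. Of 6 macrophage markers 2 were higher and 1 lower in WT eWAT, where they summed to 868.9 to 1795 TPM in flight and 666.2 to 972.4 TPM on the ground, and their part was not tested.

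In Liv of KO mice the 3 calls included Rpl22, a large subunit protein known for its need in T cell development, and Rpl5, which binds Mdm2 outside the ribosome. Rpl22 was at 45.1 to 54.8 CPM (median 46.3) in GC_KO and at 75.8, 71.4, 59.1, 55.8 and 57.1 CPM in FL_KO, with all flight values above all ground values (0.42, SE 0.079, adjusted p = 0.00317). Rpl5 was at 5.27 to 7.25 CPM (median 6.74) and at 11.3, 10.8, 11.7, 9.99 and 9.12 CPM, also without overlap (0.69, SE 0.147, adjusted p = 0.00932). With the near copies added, which hold 96.6% of its family, Rpl5 changed by 0.15 (adjusted p = 0.392).

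In Thy the members called in WT had log2 fold changes of -0.25 to -0.13 on the TMM scale, and these values are relative to other genes as described above. Rps9, a small subunit protein placed early in assembly, was at 547.5 to 622.9 CPM (median 596.3) in GC_WT and 455.5 to 540.3 CPM (median 512.1) in FL_WT. The groups did not overlap (-0.22, SE 0.048, adjusted p = 0.00174), but on the TPM scale the value was 0.01. Rpl28, shown above with its pyrimidine run, was at 181.2 to 206.6 CPM (median 191.2) and 146.3 to 188.3 CPM (median 161.6) in GC_WT and FL_WT (-0.23, SE 0.056, adjusted p = 0.00478). In KO it was at 165.8 to 201.3 CPM (median 192.8) and at 135.9, 146.1, 148.6, 153.1 and 144.2 CPM, without overlap (-0.36, SE 0.059, adjusted p = 4.26e-05; -0.09 on the TPM scale). Rpl7 in KO was at 482.6 to 604.0 CPM (median 532.0) and at 459.4, 434.5, 445.7, 423.1 and 418.8 CPM, also without overlap (-0.32, SE 0.058, adjusted p = 0.000146; -0.06 on the TPM scale).

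The single member called higher in Thy was the pseudogene Rps4l in KO, at 4.27 to 8.20 CPM (median 5.10) in GC_KO and at 7.84, 6.55, 7.94, 8.72 and 9.62 CPM in FL_KO (0.54, SE 0.184, adjusted p = 0.0235). The groups overlapped, and the call was lost without FL_KO mouse 12 (0.47) or GC_KO mouse 04 (0.46). Beside the members, 8 of 10 proliferation markers were lower in WT thymus and 9 in KO, and 6 and 8 of 9 T cell markers, all on the TMM scale. All 6 macrophage markers were higher in KO, where they summed to 159.4 to 205.8 TPM in flight and 84.1 to 117.5 TPM on the ground. Proliferation markers summed to 446.8 to 690.6 TPM in FL_WT and 591.2 to 787.1 TPM in GC_WT, and to 479.7 to 544.3 and 515.5 to 778.8 TPM in FL_KO and GC_KO. Their part in the change of the members was not tested.

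Few members were called between the genotypes at an adjusted p under 0.05, although more differed at an unadjusted p, as given below. KO against WT on the ground gave 5 pairs lower and none higher of 770, beside 0.814% and 0.836% of all pairs. In flight it gave 13 lower and 2 higher, beside 0.855% and 0.5%. On the ground 2 of these were in Spl, 1 in Liv and 2 in Thy, where 0.538%, 1.7% and 1.13% of all genes were called lower and 0.588%, 0.938% and 2.67% higher. In the tissues without a member called on the ground, 0.055% (MdB) to 1.33% (eWAT) of all genes were called higher and 0.121% (TpB) to 1.41% (eWAT) lower. Among these, ground TpB had 85 of 86 members below 0, with a median of -0.28 (all genes 0.01). The members' share of counts did not overlap between genotypes in ground MdB (-9.5% of the WT mean), ground iBAT (-13.4%) and flight Kid (12.2%). It overlapped in the other genotype comparisons. In flight Spl had 2 lower, where 0.662% of all genes were lower and 0.495% higher, Liv had 2 higher and 1 lower (1.36% and 2.29%), and eWAT had 1 lower (0.659%, with 0.405% higher). The other 9 of the 13 were in Thy, where 1.34% of all genes were lower and 1.31% higher, with Rpl13a and Rpl26 among the 9. That count of 9 fell to 1 without FL_KO mouse 01 or 12, 3 without mouse 09, 4 without mouse 02 and 5 without mouse 11, and was 14 without GC_KO mouse 04. By edgeR at an unadjusted p under 0.05, 7 pairs were higher and 63 lower on the ground (5.64% and 5.18% of all pairs). In flight 30 were higher and 81 lower (4.92% and 5.51%). In Thy 1 of 85 members was higher and 30 lower on the ground (10.8% and 8.08% of all genes). Flight Thy had 47 of 85 lower (10.5%) and flight Spl 28 of 85 (5.29%), with none higher. Flight Kid had 14 of 86 higher (6.24%) and none lower.

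Rpl13a, a large subunit protein also known as a subunit of the interferon-gamma-activated inhibitor of translation, was lower in KO mice in several tissues. Its gene lies at chr7:45125558-45128761 on the minus strand of mm10, and its 1 near copy held 0.669% of the counts of the family. In Spl it was at 932.8 to 1025 CPM (median 959.8) in GC_WT and 652.8 to 743.4 CPM (median 682.5) in GC_KO, a log2 difference of -0.47 (SE 0.038, adjusted p = 1.13e-08). In flight Spl it was at 928.5 to 1018 CPM (median 964.6) in WT and at 702.3, 722.7, 642.4, 681.6 and 658.9 CPM in KO (-0.51, SE 0.040, adjusted p = 7.63e-09). No KO value reached any WT value, and the flight and ground comparisons share no mouse.

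In Thy, Rpl13a was at 585.9 to 643.3 CPM (median 618.6) in GC_WT and 443.5 to 523.9 CPM (median 453.6) in GC_KO (-0.40, SE 0.048, adjusted p = 5.51e-06). In flight Thy it was at 489.1 to 596.4 CPM (median 571.0) in WT and at 399.4, 417.1, 406.4, 430.8 and 390.9 CPM in KO (-0.44, SE 0.051, adjusted p = 2.99e-06). These groups did not overlap either. In Liv it was at 133.1 to 167.4 CPM (median 157.9) in GC_WT and 110.9 to 126.4 CPM (median 113.7) in GC_KO (-0.42, SE 0.073, adjusted p = 0.000936), without overlap, and in flight the difference was -0.34 (SE 0.077, adjusted p = 0.0103), with overlapping groups and a call that limma did not make.

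In eWAT the difference of Rpl13a was -0.31 (SE 0.075, adjusted p = 0.0453) in flight, a call lost without FL_KO mouse 01, 09, 11 or 12, and -0.25 (adjusted p = 0.067) on the ground by edgeR, where DESeq2 called it (adjusted p = 0.0258). By edgeR it was not called in TpB (-0.57 and -0.47), MdB (-0.42 and -0.21), iBAT (-0.26 and -0.15), Kid (-0.27 and -0.18) or Cbr (-0.21 and -0.24), on the ground and in flight. Of these, limma on the TPM scale called it lower in iBAT on the ground (-0.38, adjusted p = 0.00518). The sign was negative in all 18 comparisons, and of the 85 members tested in every tissue Rpl13a was the only 1 with that property. In TPM the KO mean was 67.9 to 86.8% of the WT mean.

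**Figure D5:**
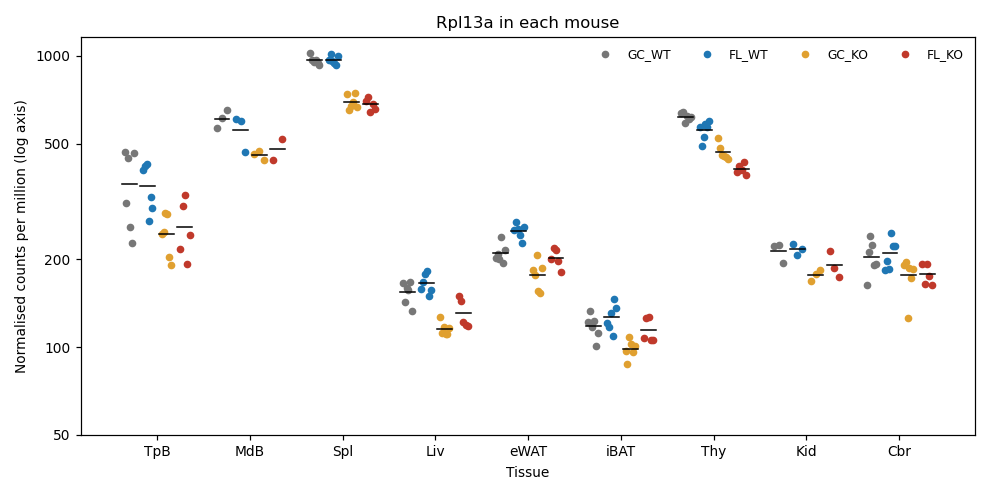
Rpl13a in each mouse (points) by tissue and group, in CPM on TMM-scaled libraries (log axis). In Spl and Thy all KO points lie below all WT points, in flight and on the ground.

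Other genotype calls were smaller or rested on single mice. Rpl26 in Thy differed by -0.19 on the ground (SE 0.045, adjusted p = 0.0185), a call lost without GC_KO mouse 04 (-0.18), and by -0.20 in flight (SE 0.047, adjusted p = 0.024), a call lost without FL_KO mouse 01 or 12. In flight Liv, Rpl3, whose loop reaches the peptidyl transferase center, was at 82.7 to 129.8 CPM (median 98.4) in WT and at 139.5, 147.9, 139.8, 116.8 and 135.3 CPM in KO. That difference of 0.42 (SE 0.108, adjusted p = 0.0279) was lost without FL_KO mouse 02, 09 or 12. Rps29 was at 12.8 to 17.9 CPM (median 13.8) and at 27.5, 23.4, 18.6, 19.98 and 16.3 CPM (0.51, SE 0.133, adjusted p = 0.0307), groups that overlapped, and was not called without mouse 01 or 02.

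Genes around the ribosome, from lists of known function, moved in iBAT in different directions. The genes Fau, Rack1 and Rpl36al lie outside the rule although their products are parts of the ribosome. Rack1, a scaffold on the small subunit, rose by 0.34 in WT iBAT and 0.61 in KO, and Fau rose by 0.46 in KO (adjusted p = 0.00147). In Thy the changes of Fau (-0.26 and -0.28) and Rack1 (-0.19 and -0.26) were called lower in both genotypes on the TMM scale, while on the TPM scale Fau was at -0.028 and -0.025 and Rack1, with the sign turned in WT, at 0.037 and -0.002, none of them called. Of 17 genes listed for the pyrimidine motif, translation factors and others, 7 rose in WT iBAT and 12 in KO (8.83% and 17.0% of all genes). Their medians were 0.20 and 0.38, and the motif was taken from the list. Eef1g, a subunit of the elongation factor complex, rose by 0.31 and 0.56. In Thy the motif list had 1 higher and 5 lower in WT and 8 lower in KO on the TMM scale. Among the lower was Eif3h, a subunit of an initiation factor, at -0.28 and -0.33. On the TPM scale the motif list instead had 7 higher and none lower in each genotype.

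Of 36 assembly factors, which process ribosomal RNA and fit the proteins to it, 13 were higher and 1 lower in WT iBAT, and 25 were higher in KO. Of all genes in iBAT, 8.83% were higher and 10.3% lower in WT, and 17.0% and 16.6% in KO. The medians of the assembly factors were 0.26 and 0.37. Rrp12, which acts in the maturation of both subunits, rose by 0.93 in WT, and the nucleolar protein Mybbp1a rose by 0.60 in KO. In Thy 10 of the assembly factors were higher in WT (11.8% of all genes), and 5 were higher and 3 lower in KO (19.3% and 18.9%). Of 11 subunits and factors of RNA polymerase I, 3 rose in WT iBAT (8.83% of all genes) and 6 in KO (17.0%). In KO iBAT Polr1a, which encodes the largest subunit, rose by 0.53. Of 18 genes of mTORC1 and Myc control, 2 were higher and 2 lower in WT iBAT (8.83% and 10.3% of all genes). In KO iBAT 5 of them were higher and 3 lower (17.0% and 16.6%). Larp1, the protein that binds the pyrimidine motif, rose by 0.37 and 0.69, and the mTOR inhibitor Deptor fell by 0.88 and 1.38 on the log2 scale. In eWAT Deptor instead rose by 0.92 and 0.55.

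The mitochondrial ribosome, built from a separate set of nuclear genes, differed from its cytosolic counterpart in iBAT. Of its 78 proteins, 41 were lower in WT and 63 in KO and none higher, with medians of -0.22 and -0.39 on the TMM scale. Of all genes, 10.3% were lower and 8.83% higher in WT iBAT, and 16.6% and 17.0% in KO. Mrpl16 changed by -0.61 and -0.87. On the TPM scale 16 were higher and 1 lower in WT (55.8% and 3.58% of all genes), and 19 higher and 9 lower in KO (65.3% and 5.36%). The medians of the mitochondrial list were then 0.09 and 0.03, so its sign against 0 depended on the scale. On both scales these medians were below those of the cytosolic members and of all genes.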

How the data were processed

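RNA-seq libraries of 9 tissues were analysed, 192 in the deposited table and 184 here, without the 8 of mouse FL04. Per the labels and the study's methods, the authors converted reads with bcl2fastq, aligned them to mm10 with STAR 2.6.1 and quantified genes of GENCODE with RSEM 1.3.1. The deposited values are expected counts per gene and TPM, computed by the authors, and the deposited FPKM values were not used. RSEM divides reads that match several genes between them by a model, so that near copies can take counts from a member or give counts to it.

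Expected counts were rounded to whole numbers. Thymus libraries differ in type, and each tissue was fitted alone. In each tissue genes were kept by filterByExpr and scaled by TMM, and the 4 groups were fitted together with the quasi-likelihood test of edgeR 4.0.16 (R 4.3.3), with p-values adjusted by Benjamini-Hochberg within each tissue over every gene that passed the filter. Calls needed an adjusted p below 0.05. DESeq2 1.42.0 on the counts and limma 3.58.1 on log2(TPM + 1), for genes with a mean of at least 5 TPM in a group, served as alternatives. Single mice were also left out, namely each FL_KO mouse, every mouse of MdB and Kid, and GC_KO mouse 04 in Thy. No other mouse was left out singly. Further alternatives were a replicate block, no filter, the compared groups alone, inclusion of FL04, TMM factors from non-members, and counts with near copies added. The last of these and the iBAT fit without 3 libraries were chosen after the data were seen. Near copies were rows whose transcripts share at least 50% of their 31-base words with a member. Start sites are those of RefSeq, GRCm38.p6. No protein or longer promoter sequence was used here. Mice with the same number in FL and GC are different animals, and p-values rest on the spread between mice.

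On simulated counts, the share of changed genes recovered at a log2 change of 0.3 was 18% in eWAT, 9% in iBAT and 35.4% in Thy, for genes drawn from all that were tested. Named were the members with an l after the number, up to 2 members called in each direction per tissue and comparison by the smallest adjusted p (mean TPM of at least 5), up to 6 called in both genotypes in most tissues, the 3 highest and 3 lowest and the 5 most variable over tissues, Fau, and the leading calls of each other list. Rpl9, Rps2 and Rpl36al were named after their values were seen. Some genes that the rule names are not reported here, although they remain in the counts and medians, and the plots by gene hold the members named in the text. The members and all gene lists were chosen with earlier results of these data known.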

Additional observations from a re-analysis of the deposited data

Results flagged for a closer look

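In 5 of 112 sets of 4 to 10 mice examined, 1 mouse stood further from its group than Dixon's 95% limit allows, and chance alone gives about 1 in 20. For the share of expected counts held by the ribosomal protein genes these were FL_KO mouse 12 in Thy (1.90%) and GC_KO mouse 04 in Cbr (0.579%). For single genes they were Rpl8 in iBAT of FL_KO mouse 01 (204.4 TPM), Rpl38 in eWAT of FL_KO mouse 02 (540.7 TPM) and Rpl13a in Liv of GC_WT mouse 08 (356.6 TPM). The cause was not tested. Of the calls on these genes, that of Rpl38 was lost without the mouse named. The call of Rpl13a in Liv on the ground was not tested without GC_WT mouse 08, which was not left out singly.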

How the results depend on the processing

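Counts are pairs of member and tissue, and causes were not tested. FL_WT against GC_WT gave 31 higher and 24 lower. These became 134 and 0 by limma on TPM, 10 higher without a filter on low counts, 18 higher without the 3 iBAT libraries with muscle transcripts, 37 lower by DESeq2 and 38 lower with near copies added. With 1 mouse left out they were 30 to 34 and 23 to 30. The mice left out were those of FL_KO in every tissue, all in MdB and Kid, and GC_KO mouse 04 in Thy. Outside MdB and Kid no WT mouse was left out, so these ranges do not test single WT mice there. FL_KO against GC_KO gave 67 higher and 38 lower, 130 and 0 by limma, and 44 to 69 and 27 to 45 with 1 mouse left out, the lowest count of higher pairs being without FL_KO mouse 02. GC_KO against GC_WT gave 0 higher, and 1 by limma or with near copies added, and 5 lower, 9 by DESeq2, with 4 to 5 when 1 mouse was left out. FL_KO against FL_WT gave 2 higher, which became 4 by limma, 0 without the filter and 1 in a fit of the compared groups alone, and 0 to 4 with 1 mouse left out. Its 13 lower became 27 by DESeq2, 6 by limma, 7 with TMM factors from non-members, 6 with FL04 and 4 in the compared groups alone, and 3 to 18 with 1 mouse left out. The interaction had 0 higher, and 1 by DESeq2. The ratio of Spl to iBAT of 8.19 became 5.87 by share of counts. It became 5.84 with TPM rescaled over the genes that are neither members nor mitochondrially encoded. On the TPM scale Rps9 in Thy turned to 0.0088 and Rps27l in KO iBAT to 0.17.

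With the mouse number as a replicate block the pairs were 29 higher and 24 lower in WT and 78 and 37 in KO, and the interaction stayed at 0. Only in Liv of KO mice did the deviations of all 5 same-numbered pairs of mice correlate above 0.1 (0.222 to 0.369). Its 3 calls were the same genes under the block. All 5 pairs were above 0 in iBAT (0.071 to 0.286) and Spl (0.014 to 0.173) of KO, and all 6 in Liv of WT (0.02 to 0.342). What mice of the same number share was not tested. The block moved eWAT of KO from 9 to 28 higher, iBAT of WT from 15 to 7 and iBAT of KO from 54 to 47. MdB and Kid were not blocked.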
